A study of Mus musculus with 10 samples.

Results

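Connexins are the membrane proteins of gap junctions, and the report covers 4 of them, Gja1, Gjb2, Gjb5 and Gjb6, in RNA-seq of mouse esophageal epithelium. They are 4 of 20 connexin genes and of 56691 genes in the deposited table, taken by their symbols, and they were chosen on their FPKM values in the wild-type and knockout libraries, so every difference of theirs between the genotypes is given as a description with no test. The 10 libraries were 5 from wild-type mice and 5 from p63CreERT2;Mst1loxp/loxp;Mst2-/- mice, called knockout here. Both groups received tamoxifen, 3 doses at 100 mg/kg every 2 weeks, and RNA was taken about 8 weeks on. The knockout joins a floxed Mst1 allele, null alleles of Mst2 in all cells, and a tamoxifen-inducible Cre named for p63, which marks squamous basal cells. No source used here gives the age of the mice or says whether the wild-type mice carried Cre. Mst1 and Mst2 are kinases of the Hippo pathway, which restrains the coactivators YAP and TAZ.

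Connexin subunits join in sixes to form a hemichannel, and the hemichannels of neighbouring cells dock into a channel that passes ions and small metabolites. Squamous epithelia use several connexins at once. Gja1 encodes Cx43, the connexin of most cell types and of the lower layers of squamous epithelium. Gjb2 and Gjb6 encode Cx26 and Cx30, which can share a channel and whose mutations cause deafness and skin disease in humans. Gjb5 encodes Cx31.1, a connexin of stratified epithelia in the mouse.

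The libraries held about 13070000 to 16440000 fragments and 10878 to 11606 genes at 1 FPKM (fragments per kilobase of gene model, scaled to sequencing depth) or more. Stk3, the gene of Mst2, averaged 2.62 ± 0.521 FPKM in wild type against 0.134 ± 0.0862 in knockout (SD, n = 5 and 5), and Stk4, the gene of Mst1, 19.3 ± 2.41 against 15.6 ± 2.00 FPKM. A level summed over the gene does not check the deletion of single Mst1 exons. All 13 squamous epithelium markers reached 1 FPKM, led by Krt13 at 36764 ± 1808 FPKM (wild type) and 36642 ± 1835 FPKM (knockout). Of these, 1 fell and 0 rose past the threshold of limma (adjusted p under 0.05), which 12.9% of all tested genes passed. The marker that fell was Trp63, the gene of p63, at 38.8 ± 5.45 FPKM in wild type against 22.6 ± 3.58 in knockout. Its groups did not overlap (limma adjusted p = 0.00293). The knockout carries the Cre named for p63, and the part of that Cre in the level of Trp63 was not tested. The wound keratin Krt6a averaged 280 ± 288 against 738 ± 363 FPKM and Krt6b 272 ± 345 against 774 ± 389 FPKM, and neither passed (limma adjusted p = 0.0743 and 0.105). Their part in the connexin levels was not tested. Endothelium, smooth muscle and striated muscle markers summed to at most 1.03 FPKM a list in any library. Fibroblast markers summed to 5.07 to 16.2 FPKM in wild type, most of it Dcn, against 0.39 to 2.11 in knockout. Dcn averaged 8.59 ± 3.93 FPKM in wild type against 0.308 ± 0.459 in knockout, and Vim 1.14 ± 0.945 against 0.85 ± 0.653. Vim exceeded Dcn in every knockout library but knockout 4. Col1a1, Col1a2 and Col3a1 did not exceed 0.02 FPKM. Immune markers summed to 5.32 to 33.3 FPKM in wild type against 5.28 to 16.8 in knockout, led by Cd74. Nerve and glia markers, led by Tubb3, summed to 0.93 to 11.9 and 5.19 to 21.6 FPKM. Nothing in the labels ties a library to its own mouse, so p-values here measure only the spread between samples, which may be technical. In bulk tissue, fewer cells of a type and less RNA per cell cannot be told apart.

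The promoters of the 4 genes are shown because 2 of them, Gjb2 and Gjb6, are neighbours whose transcripts varied together, because the knockout was made in a pathway whose factors bind known motifs, and because the genes differed in how they stood in the knockout. Each sequence runs 5′ to 3′ on the gene's strand from 250 bases before to 50 bases after the RefSeq start (RefSeq, GRCm38.p6, which is not the authors' build mm9). Capitals mark the searched motifs on either strand, which were GGAATG for the TEAD factors that partner YAP and TAZ, TGANTCA for AP-1, GGGCGG for the GC box, CCAAT for the CCAAT box, TATAAA for the TATA box, CACGTG for the clock E-box, TTANNTAA for the D-box and AACCNGTT for the GRHL factors.
Gja1 (chr10:56377050-56377349, plus strand): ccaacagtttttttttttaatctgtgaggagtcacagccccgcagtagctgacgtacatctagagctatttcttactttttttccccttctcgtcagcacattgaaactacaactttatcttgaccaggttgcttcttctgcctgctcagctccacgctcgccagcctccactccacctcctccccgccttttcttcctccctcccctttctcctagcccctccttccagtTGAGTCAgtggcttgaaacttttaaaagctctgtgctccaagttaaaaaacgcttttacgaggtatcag
Gjb2 (chr14:57104653-57104952, minus strand): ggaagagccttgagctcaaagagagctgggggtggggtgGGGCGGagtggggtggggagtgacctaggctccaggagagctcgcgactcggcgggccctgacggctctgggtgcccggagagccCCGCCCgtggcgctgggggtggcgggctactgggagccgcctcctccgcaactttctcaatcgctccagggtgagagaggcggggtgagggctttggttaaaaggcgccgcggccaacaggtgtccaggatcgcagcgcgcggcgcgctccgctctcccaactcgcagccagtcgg
Gjb6 (chr14:57133562-57133861, minus strand): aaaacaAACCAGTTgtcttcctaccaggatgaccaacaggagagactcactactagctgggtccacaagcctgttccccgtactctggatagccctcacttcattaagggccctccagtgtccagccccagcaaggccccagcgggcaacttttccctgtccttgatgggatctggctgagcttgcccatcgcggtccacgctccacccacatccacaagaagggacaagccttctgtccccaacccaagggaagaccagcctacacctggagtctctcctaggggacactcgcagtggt
Gjb5 (chr4:127358115-127358414, minus strand): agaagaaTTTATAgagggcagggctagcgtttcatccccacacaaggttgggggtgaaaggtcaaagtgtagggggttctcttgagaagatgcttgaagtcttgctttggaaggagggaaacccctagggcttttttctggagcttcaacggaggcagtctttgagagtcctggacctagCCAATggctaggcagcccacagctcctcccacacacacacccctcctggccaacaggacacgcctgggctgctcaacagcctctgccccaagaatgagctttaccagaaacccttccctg

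The promoter of Gjb2 was the richest in G and C, at 70.0% of bases and 27 CG pairs, against medians of 52.7% and 7 CG pairs over 32851 promoters of the same length. Gjb6 had 57.3% and 6, Gjb5 54.3% and 3, and Gja1 47.7% and 8. Gjb2 held 2 GC boxes, starting 211 and 126 bases before the start, a motif found in 35.7% of promoters. The AP-1 letters stood in Gja1 only, 19 bases before its start, and in 7.81% of promoters. Gjb5 held CCAAT 70 bases before the start (37.4% of promoters) and TATAAA on the other strand 243 bases before it (13.6%), and Gjb6 the GRHL letters 244 bases before it (2.09%). None of the 4 windows held the TEAD letters, which 14.7% of promoters hold, the clock E-box (7.15%) or the D-box (6.0%). No motif overlapped another in these windows.

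Gja1 and Gjb2 supplied most of the transcript of the 4 connexins in this epithelium. On the FPKM scale, which is per length of the gene model, the order of mean levels in wild type was Gjb2, Gja1, Gjb6 and Gjb5, and it was the same in knockout. Gjb2 and Gja1 overlapped between libraries in both genotypes, and the other neighbours in this order did not. Gja1 made up 41.2% ± 6.47 of the summed FPKM of the 4 genes in wild type and 45.8% ± 11.7 in knockout, and Gjb2 42.4% ± 7.89 and 43.8% ± 11.9 (SD, n = 5 and 5). Gjb6 had 11.2% ± 0.999 and 7.90% ± 1.41, and Gjb5 5.18% ± 1.14 and 2.51% ± 1.05. The sum itself was 355 to 574 FPKM in wild type against 259 to 539 in knockout, so the groups overlapped. Of the 20 connexins, 13 stayed under 1 FPKM in every library, 6 of them at 0 throughout, with 0.59 FPKM as the highest value.

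**Figure D1:**
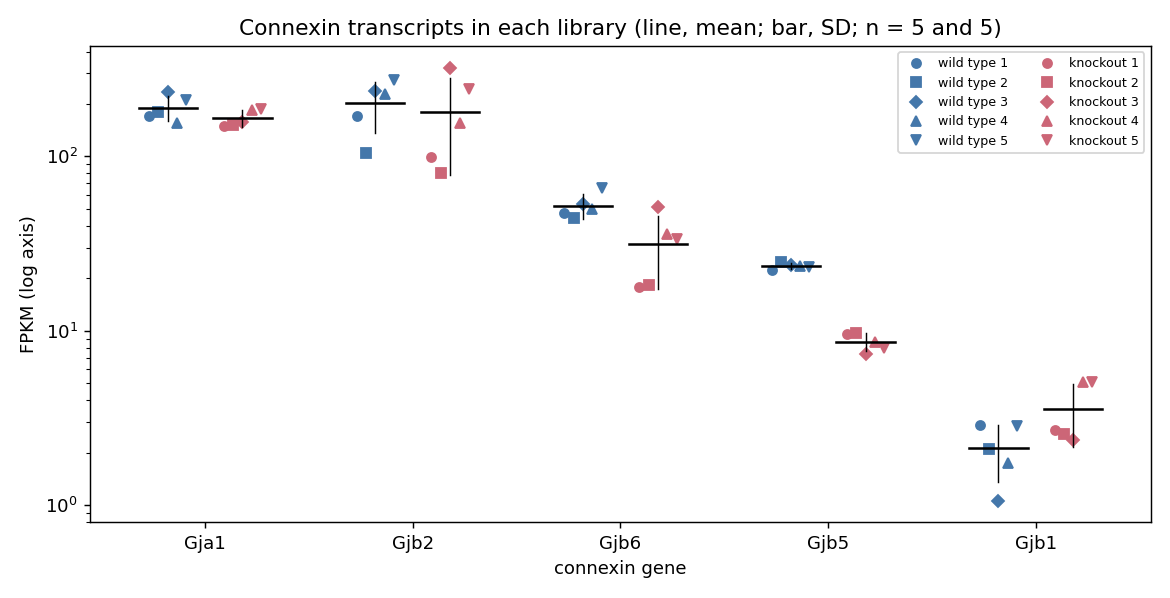
FPKM (log axis) of the 4 connexins and of Gjb1, 1 symbol a library, blue for wild type and red for knockout, with the mean and SD of each group (n = 5 and 5). The groups of Gjb5 do not overlap, while those of Gja1, Gjb2, Gjb6 and Gjb1 do.

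**Figure D2:**
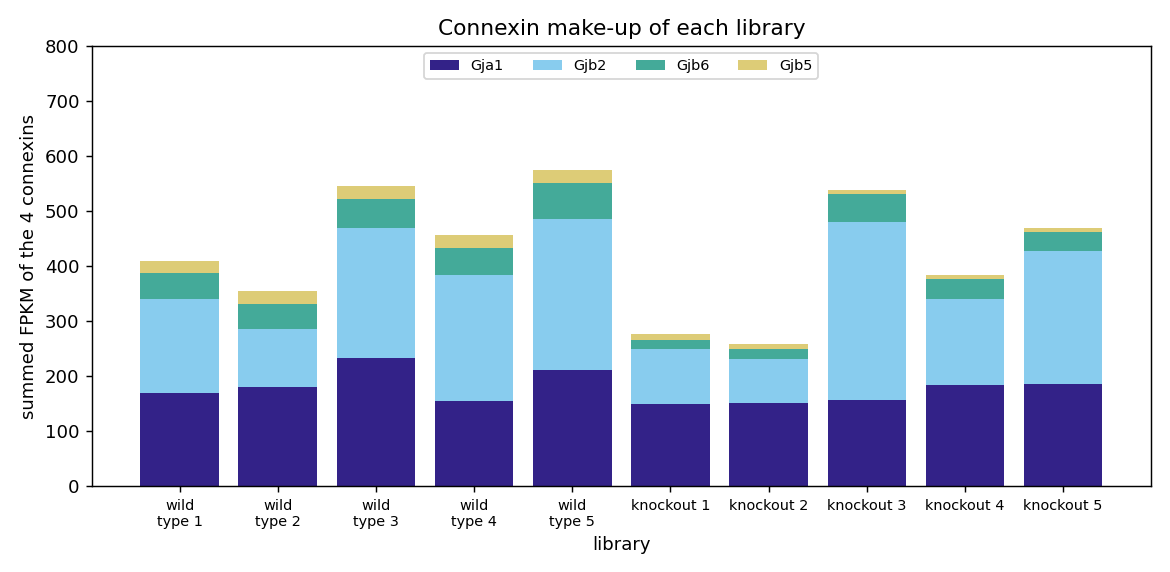
Summed FPKM of Gja1, Gjb2, Gjb6 and Gjb5 in each of the 10 libraries, stacked by gene. Gja1 and Gjb2 fill most of every bar, and the bars run from 259 FPKM in knockout 2 to 574 FPKM in wild type 5.

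Gjb5 stood apart most clearly between the genotypes. In wild type 1 to 5 it was at 22.2, 24.7, 23.8, 23.6 and 23.1 FPKM. In knockout 1 to 5 it was at 9.60, 9.65, 7.37, 8.67 and 7.99 FPKM. Every knockout library lay below every wild-type library, and the spread within each genotype was small. The means were 23.5 ± 0.927 and 8.66 ± 0.997 FPKM (SD, n = 5 and 5), 63.1% lower in knockout, a log2 difference of -1.35 (SE 0.09) on the log2(FPKM + 1) scale used for all log2 values here. With an exon length of 1721 bp in GENCODE M21, the lowest value would rest on about 176 fragments, whose counting error is about 7.54%.

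Gjb6 was lower in most knockout libraries but not in all. In wild type 1 to 5 it was at 47.2, 44.4, 53.4, 49.8 and 65.9 FPKM. In knockout 1 to 5 it was at 17.8, 18.3, 51.2, 35.9 and 33.6 FPKM. Knockout 3 lay inside the wild-type range, the other 4 knockout libraries below it. The means were 52.1 ± 8.39 and 31.3 ± 13.9 FPKM, a log2 difference of -0.81 (SE 0.26).

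Gjb2 varied more within each genotype than between them. In wild type 1 to 5 it was at 171, 105, 236, 228 and 274 FPKM. In knockout 1 to 5 it was at 98.9, 79.9, 323, 156 and 242 FPKM. Knockout 3 had the highest level of all libraries and knockout 2 the lowest, 4.05-fold apart. The means were 203 ± 65.9 and 180 ± 102 FPKM, a log2 difference of -0.29 (SE 0.39).

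Gja1 was the steadiest of the abundant connexins. In wild type 1 to 5 it was at 170, 181, 233, 155 and 211 FPKM. In knockout 1 to 5 it was at 150, 151, 157, 184 and 186 FPKM. The groups overlapped, and the highest library was 1.55-fold above the lowest. The means were 190 ± 31.5 and 165 ± 18.05 FPKM, a log2 difference of -0.19 (SE 0.14). Gja1 is also a connexin of fibroblasts and muscle. Of the fibroblast markers Dcn and Vim reached 1 FPKM, Vim at 0.30 to 2.59 FPKM in wild type and 0.25 to 1.88 in knockout, and the part of such cells in the level of Gja1 was not tested.

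Of the 4 genes, all passed the filter on low values, and 1, Gjb5, was among the genes that limma called lower in knockout, as were 4.96% of all 11386 tested genes (12.9% were called in either direction). Groups that did not overlap, lower in knockout, were found for Gjb5 and for 3.88% of all tested genes. Nothing is read from the call of Gjb5 or from these counts, since the same values chose the genes.

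Gjb1, the gene of Cx32, best known from liver and myelinating Schwann cells, is not among the 4 and could be tested. It was at 2.87, 2.09, 1.06, 1.74 and 2.85 FPKM in wild type 1 to 5, then 2.69, 2.57, 2.37, 5.09 and 5.06 FPKM in knockout 1 to 5. The groups overlapped, with knockout 4 and 5 above all others. Gjb1 did not pass, with 2.12 ± 0.769 FPKM in wild type against 3.56 ± 1.39 in knockout (log2 fold change 0.53, SE 0.22; by limma, Benjamini-Hochberg adjusted p = 0.135 over all tested genes).

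Gjb2 and Gjb6 are close neighbours on chromosome 14, beside Gja3 and with only the predicted gene Gm4491 between them, while Gja1 has no connexin beside it on chromosome 10 (gene order from GENCODE M21 on GRCm38, used for order only). Gja3, a lens connexin, was listed at 0 in all libraries. Beside Gjb6, Cryl1, which encodes a crystallin-related enzyme, had 12.7 ± 7.11 and 6.79 ± 2.15 FPKM and did not pass (log2 fold change -0.71; limma adjusted p = 0.175). Of 6 protein-coding genes on chromosome 14 that are no connexins and lie within 3 places of Gjb2 or Gjb6, 4 could be tested and 0 passed by limma, with 0 at an unadjusted p under 0.05. Of 6 such genes around Gja1, 3 could be tested and 0 passed, with 1 at an unadjusted p under 0.05. Over all 11386 tested genes 12.9% passed by limma, and 3387 had an unadjusted p under 0.05.

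**Figure D3:**
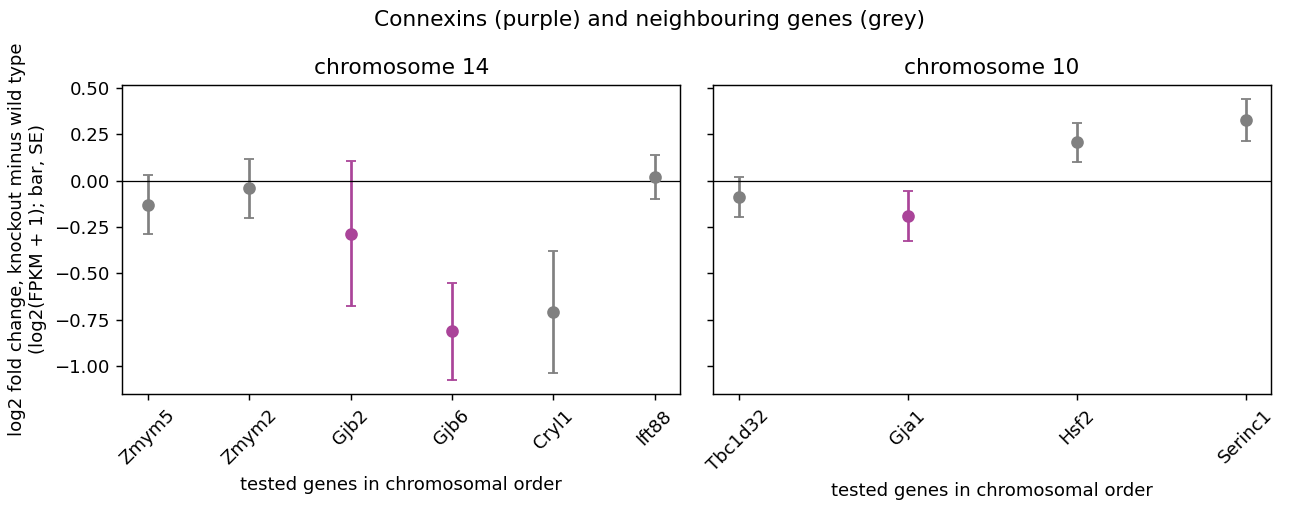
Log2 fold change, knockout minus wild type, with its SE (limma) of Gjb2, Gjb6 and Gja1 in purple and of tested neighbouring genes in grey, in chromosomal order and not to scale. Gjb6 lies at -0.81 and its neighbour Cryl1 at -0.71, while Gjb2 lies at -0.29 and Gja1 at -0.19.

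Gjb2 and Gjb6 varied together from library to library within each genotype, a relation that the comparison of genotypes does not use. Deviations of the log2 values from the genotype mean ran from -0.97 in knockout 2 to 1.03 in knockout 3 for Gjb2 and from -0.67 in knockout 1 to 0.80 in knockout 3 for Gjb6. Over the 10 libraries they correlated with r = 0.89 (exact permutation within genotype, two-sided, 14400 assignments, p = 0.00438, adjusted 0.0320 over 13 relations) and rho = 0.87 (exact permutation p = 0.0106, adjusted 0.0686). The rho did not pass the adjustment by exact permutation. The r was 0.82 within wild type, 0.94 within knockout and 0.90 without the 2 libraries farthest out in Gjb2, wild type 2 and knockout 2. Other genes followed Gjb2 more closely than Gjb6 did, among them Lypd3 (r = 0.98).

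Gjb5 ran against Gjb2 (r = -0.86, exact permutation p = 0.00972, adjusted 0.0421; rho = -0.82, p = 0.0233, adjusted 0.0758) and against Gjb6 (r = -0.88, p = 0.0203, adjusted 0.0661; rho = -0.79, p = 0.0400, adjusted 0.0867). Only the r with Gjb2 passed the adjustment by exact permutation, while its rho and both values with Gjb6 did not. Without the 2 libraries farthest out in Gjb2, knockout 2 and wild type 2, the r with Gjb2 was -0.82. The r with Gjb6 was -0.70 without the 2 libraries farthest out in Gjb5, knockout 3 and knockout 2. Within knockout the r was -0.99 and -0.95 and within wild type -0.43 and -0.27, a difference that was not tested. The deviations of Gjb5 spanned only -0.20 to 0.15. After scaling by median ratios the r of Gjb5 was -0.66 with Gjb2 and -0.55 with Gjb6.

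Gja1 followed neither Gjb2 (r = 0.38, exact permutation p = 0.254; rho = 0.44, p = 0.184), nor Gjb6 (r = 0.41, p = 0.162; rho = 0.49, p = 0.131), nor Gjb5 (r = -0.18, p = 0.571; rho = -0.19, p = 0.570) to a degree that passed, and its r with Gjb5 was 0.27 after scaling by median ratios. It was low in libraries with high clock output genes. The mean log2 value of Dbp, Nr1d1, Per3 and Tef, which swing with the time of day in most tissues, deviated from 1.34 in knockout 1 to -1.25 in knockout 5. Gja1 correlated with it at r = -0.85 (exact permutation p = 0.00493, adjusted 0.0320) and rho = -0.84 (p = 0.00264, adjusted 0.0343), and at r = -0.74 without wild type 3 and knockout 5. For Gjb2 the r was -0.72 (p = 0.0453, adjusted 0.0983; rho = -0.79, p = 0.0219, adjusted 0.0758; r = -0.74 without wild type 2 and knockout 2), for Gjb6 -0.75 (p = 0.0286, adjusted 0.0744; rho = -0.77, p = 0.0321, adjusted 0.0834; r = -0.75 without knockout 1 and knockout 3) and for Gjb5 0.55 (p = 0.169; rho = 0.59, p = 0.146), none of which passed the adjustment by exact permutation. The time of sampling is not given in the sources used here, and its part in these levels was not tested.

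**Figure D4:**
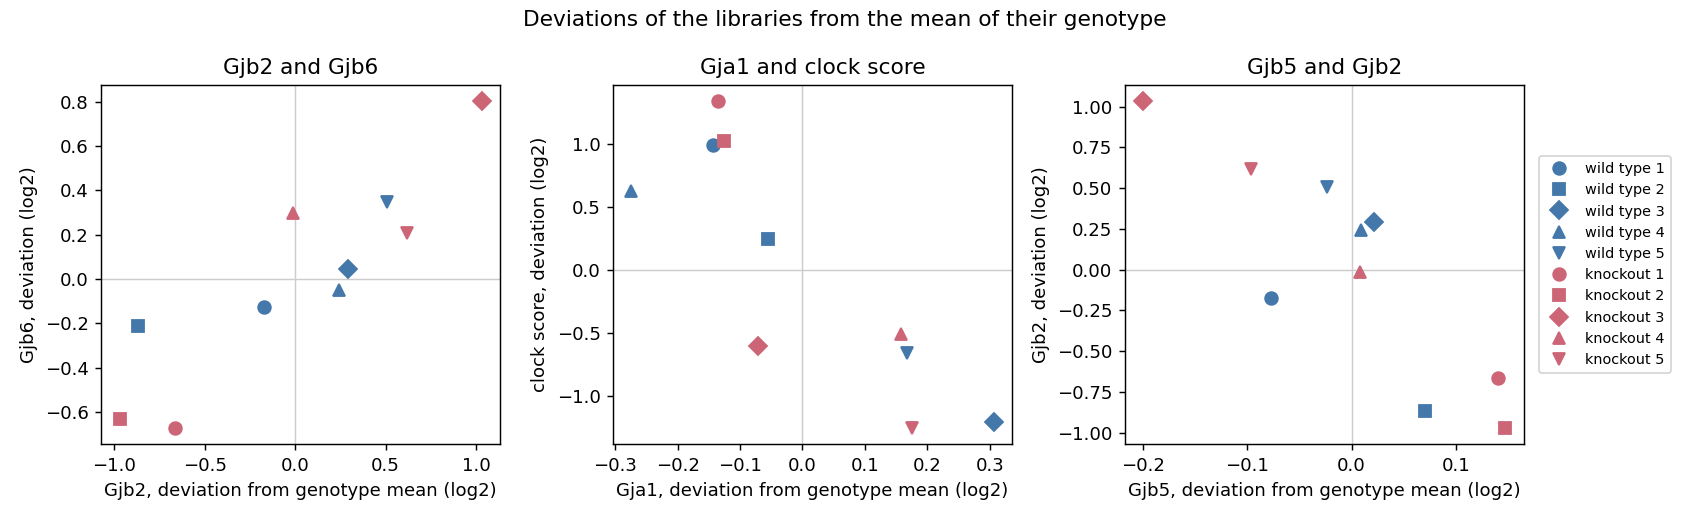
Deviations of each library from the mean of its genotype (log2 scale) for Gjb2 and Gjb6, Gja1 and the clock score, and Gjb5 and Gjb2, blue for wild type and red for knockout. Gjb2 and Gjb6 line up (r = 0.89), Gja1 falls as the clock score rises (r = -0.85), and Gjb5 falls as Gjb2 rises (r = -0.86).

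The Dbp level divides the libraries into 5 at 5 FPKM or more (wild type 1, 2 and 4, knockout 1 and 2) and 5 below (wild type 3 and 5, knockout 3, 4 and 5). Within the first class the log2 difference, knockout minus wild type, was -1.34 for Gjb6, -0.84 for Gjb2, -1.20 for Gjb5 and -0.16 for Gja1. Within the second it was -0.57 for Gjb6, -0.14 for Gjb2, -1.44 for Gjb5 and -0.34 for Gja1. All 4 genes were lower in knockout on average in both classes, which is no support, since the same values chose the genes. For Gjb5, whose groups do not overlap, the sign could not have turned. Each class holds few libraries of a genotype, and the difference between the classes was not tested.

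Other genes shared the library pattern of single connexins, taken as the 3 best correlated deviations among 5989 genes of at least 5 FPKM over the 10 libraries. Nearest to Gjb2 were Lypd3, a surface protein of suprabasal squamous cells (r = 0.98), the thioesterase gene Acot7 (0.98) and Lad1, which encodes an anchoring filament protein (0.97). Nearest to Gjb6 were Cyp26b1, an enzyme that clears retinoic acid (0.98), the transcription factor gene Tead4 (0.98) and Degs2, a desaturase of ceramide synthesis (0.97). Nearest to Gja1 were the desmosomal cadherin genes Dsc1 (0.93) and Dsg1b (0.92) and Cpt2, of mitochondrial fatty acid uptake (0.91). Nearest to Gjb5 were Hltf (0.98), Katnbl1 (0.98) and Tor3a (0.97). The median r over the compared genes was -0.11 for Gjb2, -0.16 for Gjb6, -0.19 for Gja1 and 0.12 for Gjb5. These are the highest of many correlations over 10 libraries that share their depth, and they carry no test. The wound keratin Krt6a and the proliferation marker Mki67 were at 1335 and 22.4 FPKM in knockout 3, the library with the highest Gjb2, their highest values, and the part of such states in the connexin levels was not tested.

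Genes that work with connexins mostly did not pass the test, as was true of all tested genes, of which 12.9% were called in either direction. Pannexins, which are unrelated proteins, form large membrane channels too. Panx1 averaged 1.87 ± 0.583 FPKM in wild type against 1.36 ± 0.244 in knockout (log2 fold change -0.27, SE 0.14; limma adjusted p = 0.231), and Panx2 and Panx3 were too low to be tested. Of 13 tested genes of connexin binding and assembly, 1 fell and 0 rose, with a median log2 fold change of 0.07 against 0.06 over all tested genes, of which 4.96% fell. The one that fell was Gsn, gelsolin, an actin-severing protein, at 348 ± 82.3 and 212 ± 49.3 FPKM (limma adjusted p = 0.0357). Its call ended without wild type 1, 4 or 5 or knockout 1, 2 or 3 (adjusted p up to 0.0918), without the filter (0.0872) and within either Dbp class (0.101 and 0.140), and its fold change was 0.083 with the mesenchyme and muscle covariate, the mean log2 level of the fibroblast, endothelium and muscle markers, which itself separates the genotypes without overlap. Tjp1, the scaffold ZO-1 that binds the tail of Cx43, had 36.3 ± 7.83 and 38.0 ± 6.51 FPKM (limma adjusted p = 0.799), and its fold change of 0.07 was -0.0020 after median ratios and -0.031 after quantile normalization.

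Over all 11386 tested genes 12.9% passed by limma, and 3387 had an unadjusted p under 0.05. Of 11 tested genes of connexin turnover, 0 passed, with 2 at an unadjusted p under 0.05 and a median log2 fold change of -0.001. Of 11 adherens junction genes, the contacts that precede gap junctions, 0 passed, with 0 at an unadjusted p under 0.05 and a median of -0.005. Of 11 tested kinases that phosphorylate Cx43 or other connexins, Src fell, as did 4.96% of all tested genes. Src had 7.94 ± 1.12 FPKM in wild type against 5.48 ± 0.716 in knockout (log2 fold change -0.46, limma adjusted p = 0.0245). The other 10 did not pass, and the median log2 fold change of the 11 was 0.03. Without wild type 1, wild type 5 or knockout 5 Src did not pass (adjusted p up to 0.0642), nor with the replicate number as a block (0.0514), without the filter (0.0590), with the clock covariate (0.0639), with the mesenchyme and muscle covariate (0.512) or within either Dbp class (0.333 and 0.136).

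Hemichannels can release ATP, and 3 of 8 tested genes of extracellular ATP signalling fell while 0 rose, with a median log2 fold change of -0.11 against 0.06 over all tested genes, of which 4.96% fell. Nt5e was a known result when this list was written, so the count is no independent evidence. Nt5e, the enzyme CD73 that makes adenosine from AMP, was at 9.01, 7.85, 2.23, 7.20 and 3.52 FPKM in wild type 1 to 5 and at 0.04 to 0.35 FPKM in knockout. The knockout libraries were all far below the lowest wild-type library, wild type 3 (log2 fold change -2.46, SE 0.28; limma adjusted p = 0.000209). Entpd2, which breaks down ATP outside the cell, fell as well, 5.75 ± 0.928 against 3.81 ± 0.285 FPKM (limma adjusted p = 0.0159). The ATP-gated channel gene P2rx7 fell, 2.84 ± 0.487 against 1.53 ± 0.714 FPKM (limma adjusted p = 0.0374), a call that ended without wild type 1, 2 or 5 or knockout 3, 4 or 5 (adjusted p up to 0.0967). It also ended without the filter on low values (0.0949), within each Dbp class (0.455 and 0.0502), with the mesenchyme and muscle covariate (0.299), and with the clock covariate (limma adjusted p = 0.0736), where the log2 fold change was -0.39 in place of -0.64. Entpd2 did not pass with the mesenchyme and muscle covariate (0.769; log2 fold change -0.18 in place of -0.48) or within either Dbp class (0.209 and 0.186), nor Nt5e with that covariate (limma adjusted p = 0.0619). Gsn, too, was a known result when its list was written.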

How the data were processed

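Total RNA of Dispase-separated esophageal epithelium was read from both ends of each fragment by Illumina sequencing, per the labels' protocols. The authors deposited 1 table of FPKM values with 2 decimals, 1 column a library. HTSeq 0.6.1, HISAT2 2.0.1, cutadapt and the build mm9 are named in the submitters' processing notes. No source used here gives the annotation, strand setting or scaling total, so antisense or overlapping reads cannot be told apart. In GENCODE M21 0 genes overlap the expressed connexins, and at most 0.0136 of their 31-base sequences (Gja1) occur in another gene. Fragment totals were inferred from single-exon genes up to 1200 bp, of whose values 90.2% to 98.2% were whole within 0.01 fragments beyond rounding (10.2% to 12.3% by chance). They are estimates.

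A gene was tested if 5 or more libraries had 1 FPKM or more, as log2(FPKM + 1), which understates changes of low genes, with limma 3.58.1 in R 4.3.3 (genotype only, trend and robust empirical Bayes, Benjamini-Hochberg over 11386 genes, threshold 0.05). The same code was tested on simulated data. Correlations used Python 3.11.15, numpy 2.4.6 and scipy 1.17.1, figures matplotlib 3.10.9. The genes, lists and tests were chosen with earlier results of these data known. Named were the 4 genes, Gjb1, tested pannexins, up to 4 called genes a list, Tjp1, 3 most similar genes each and marker genes. Gja3, the neighbours, Gm4491, collagens, Vim, Trp63, Krt6b and Panx2 and Panx3 were named after their values were seen. Alternatives were other pseudocounts, filters, scalings, variance models, weights, a replicate block, covariates and leaving out each library. The split by Dbp, the ratio of means, and the exact permutation p-values of the correlations were added after seeing the data. Some planned results are not reported here, among them 3 of the 13 correlations, which still count in the adjustment.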

Additional observations from a re-analysis of the deposited data

Results flagged for a closer look

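Among 40 genes, or 80 groups, 6 values stood apart from the other 4 libraries of their group, by a gap of over 0.71 of the group's range. Chance flags about 1 in 20 groups. None is a connexin. Tead4, which followed Gjb6, was at 7.66 FPKM in wild type 5 against 6.45 to 6.69 FPKM in the others. Stk4 was at 12.2 FPKM in knockout 3, the library with the highest Gjb2, against 15.8 to 17.4 FPKM. Dcn was at 1.12 FPKM in knockout 4 against 0.06 to 0.22 FPKM. The remaining values are near 0: Pecam1 at 0.02 FPKM in knockout 2 against 0.01, Tagln at 0.85 FPKM in knockout 1 against 0.32 to 0.44 FPKM, and Acta1 at 0.04 FPKM in wild type 5 against 0.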

How the results depend on the processing

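Differences of Gja1, Gjb5 and Gjb6 stayed negative in all 21 alternatives, which is no support for them, since the same values chose the genes. The groups of Gjb5 do not overlap, so leaving out libraries or changing the pseudocount could not turn its sign. The replicate block cannot change the difference of any gene in this balanced design. Gjb5 moved beyond its spread to -1.06 with a pseudocount of 5 and to -1.20 within high-Dbp libraries, Gjb6 to -0.31 with the mesenchyme and muscle covariate and -1.34 within high-Dbp libraries, and Gjb2 to 0.53 with that covariate. The covariate rests largely on Dcn and separates the genotypes, so it takes up part of their difference. Leaving out 1 library gave -0.55 to -0.04 for Gjb2 and -1.01 to -0.65 for Gjb6.

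Called genes, 900 higher and 565 lower, numbered 511 higher without the filter, 329 lower with a filter at 5 FPKM, 1390 higher with sample weights, 50 higher and 50 lower with the mesenchyme and muscle covariate, 206 and 230 within high-Dbp and 203 and 181 within low-Dbp libraries, and 436 to 1091 higher and 357 to 679 lower with 1 library left out. Higher genes were 61.4% of calls, 45.5% after median ratios and 47.9% after quantile normalization. Binding and assembly genes past the threshold were 1, but 0 without the filter, with that covariate and within each Dbp class, 2 with a filter at 5 FPKM or the clock covariate, 3 with sample weights, and 0 to 2 with 1 library left out. Turnover genes were 0, but 1 after median ratios, quantile normalization or sample weights, and 0 to 1 with 1 library left out. Kinases were 1, but 0 without the filter, with either covariate and within each Dbp class, and 0 to 2 with 1 library left out. ATP signalling genes were 3, but 0 with the mesenchyme and muscle covariate and 1 within each Dbp class. With a filter at 5 FPKM they were 0 as well, since Nt5e, Entpd2 and P2rx7 did not pass that filter and were not tested. Tjp1 turned to -0.0020 after median ratios, -0.031 after quantile normalization, -0.015 with the clock covariate and -0.12 within high-Dbp libraries, and ran from -0.026 (without wild type 2) to 0.169 with 1 library left out, and Gsn turned to 0.083 with the mesenchyme and muscle covariate. Except for filters and left-out libraries, which change what enters the fit, the cause was not tested.

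Same-numbered libraries of the genotypes did not deviate together throughout (r -0.24 to 0.42 over 5 numbers). Gjb2 and the clock score, however, deviated to the same side in numbers 1, 2, 3 and 5, but not in 4. Whether the numbers stand for a shared batch or collection time was not tested. The main fit and the permutations treat the libraries as unpaired. With the replicate block 773 genes were higher and 551 lower, and of the named genes Src lost its call. Limits of depth rest on the inferred totals, at which Gjb1 would have about 26 to 130 fragments a library.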
